A study of Mus musculus with 76 samples.

Results

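Endosome trafficking and acidification genes were examined in the hippocampus of tau transgenic mice. Members were all genes whose symbol on the array begins with Rab, Vps or Snx followed by a digit, or with Atp6v or Atp6ap. This rule, which uses names and no measured value, found, among the 11807 genes that the array annotation gives a single symbol, 48 genes named Rab, 26 named Vps, 20 named Snx and 19 named Atp6. Each gene was read from the probe set with the highest mean over the 76 arrays.

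The rTg4510 mouse carries a human tau gene with the P301L mutation under a tetracycline-responsive element, together with the tetracycline transactivator tTA, which is driven by the CaMKIIα promoter in forebrain neurons. The controls were littermates that carry tTA alone (tTA) and littermates that carry neither transgene (DN). All mice were female, and each array was made from the hippocampus of 1 mouse. At 4.7 months, 10 rTg4510, 10 tTA and 10 DN mice were measured. At 6.1 months, there were 6 rTg4510, 10 tTA and 10 DN mice. At 10.7 months, 5 tTA and 5 DN mice were measured, without rTg4510. At 1.9 months, 10 rTg4510 mice were measured with no control of that age, so their values stand without a comparison. Mice that carry the tau transgene without tTA were not analysed here, and since the parental lines are of different inbred strains, the littermates of all 3 genotypes have a mixed background.

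Rab proteins are small GTPases that mark membrane compartments and recruit the machinery for vesicle movement and fusion: Rab5 proteins act on early endosomes, Rab4 and Rab11 on recycling endosomes, Rab7 on late endosomes and Rab3 and Rab27 on secretory vesicles. Retromer, a trimer of Vps35, Vps29 and a Vps26 protein, returns cargo from endosomes with the help of sorting nexins (Snx), while ESCRT complexes sort cargo into the endosome lumen and the HOPS and CORVET tethers prepare endosomes for fusion. The vacuolar proton pump (V-ATPase), built from a cytosolic V1 sector that splits ATP and a membrane V0 sector that carries protons, acidifies these compartments and loads synaptic vesicles in neurons. A few members caught by name have other roles, such as Vps72, a chromatin-remodelling subunit, and Rab26os, an RNA transcribed opposite Rab26.

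Many lysosomal and V-ATPase genes carry the CLEAR element, bound by the TFEB family, near their start. The promoters of the members were read for its full palindrome (the capitals in the Rab5a window below), for its inner TCACGTGA and for the E-box core CACGTG. These 3 motifs nest within each other, and each is its own reverse complement, so both strands are covered. RefSeq promoters (GRCm38.p6, 250 bases before to 50 after the start) matched 88 of the members. The full palindrome stood in 5 of the 88 (5.68%), against 0.541% of 9425 promoters of genes on the array and 0.37% of 27025 promoters in all. TCACGTGA stood in 8 (9.09%, against 1.86% and 1.12%) and CACGTG in 16 (18.2%, against 10.8% and 8.09%). The members with the full element were Rab21, Rab24, Rab5a, Vps16 and Vps26a. The windows below show, with the motif in capitals, 4 of these, the inner motif of the V1 catalytic subunit Atp6v1a, and the core motif of 3 members that rose in rTg4510 mice at 6.1 months.
Rab5a, chr17:53479127-53479156, plus strand: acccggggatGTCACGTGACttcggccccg
Rab21, chr10:115315604-115315633, minus strand: gcccaccgcgGTCACGTGACgaggggtgtg
Vps16, chr2:130424290-130424319, plus strand: aggcggcctcGTCACGTGACcccgaagggc
Vps26a, chr10:62486970-62486999, minus strand: cgcacggctcGTCACGTGACaactagctct
Atp6v1a, chr16:44139373-44139402, minus strand: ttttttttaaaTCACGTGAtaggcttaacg
Snx5, chr2:144270605-144270634, minus strand: gcactgggggagCACGTGgcgtgccgctcg
Snx18, chr13:113618733-113618762, minus strand: cctcccacccacCACGTGgtcactcaagcg
Rab3il1, chr19:10018167-10018196, plus strand: ccgcctctcagaCACGTGacccgcccaggg

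None of the 5 members with the full element passed the test of rTg4510 against tTA at either age. Of the 16 with the core motif, 2 rose at 4.7 months and 4 rose at 6.1 months (Snx5, Snx18, Rab3il1 and Atp6v0e), and none fell at either age. Of the 72 without it, 2 rose and 3 fell at 4.7 months, and 4 rose and 8 fell at 6.1 months. Among all 1018 genes on the array with the core motif, 6.58% rose and 3.34% fell at 4.7 months and 6.97% rose and 9.82% fell at 6.1 months, against 5.75%, 3.28%, 6.29% and 8.67% of the 8407 without it. These counts are a description of the letters in these windows.

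Values are log2 signals. The 76 arrays had median signals between 5.23 and 5.39. The median correlation of each array with the other arrays of its group was 0.990 to 0.997. A mean above the median probe set (5.34) was found in 95 members, and the other 18 were dimmer. The mean signal of the neuron markers lay between 9.27 and 10.04 in every mouse. Its rTg4510 mean differed from its tTA mean by -0.115 at 4.7 months, with ranges of 9.77 to 9.95 and 9.91 to 10.03. At 6.1 months it differed by 0.008, with ranges of 9.69 to 9.91 and 9.27 to 10.04. The oligodendrocyte score was higher in rTg4510 than in tTA mice by 0.21 and 0.12 at the 2 ages. Between rTg4510 and tTA mice, the microglia score was higher by 0.86 at 4.7 months and by 1.28 at 6.1 months, with 12 and 13 of its 14 measured markers called. It ranged from 6.50 to 7.83 in rTg4510 and from 6.33 to 6.97 in tTA mice at 4.7 months, and from 7.43 to 7.99 and from 6.35 to 6.55 at 6.1 months. The astrocyte score was higher by 0.31 and 0.55 (3 and 8 of 8 markers called), and the CA1 pyramidal score was lower by 0.61 and 1.09 (3 and 4 of 4). The choroid plexus score varied most among mice of a group, from 4.39 to 8.31 in rTg4510 and from 4.26 to 7.93 in tTA mice at 4.7 months. Its mean was higher in rTg4510 mice by 1.55 at 4.7 months, more than that of any other marker list at that age, and by 0.71 at 6.1 months, with none of 11 markers called at either age. In bulk tissue, fewer cells of a type and less RNA per cell cannot be told apart. Each of these shifts lay between the same groups as the differences between rTg4510 and tTA mice given here. Their part in those differences was not tested except where a value is given.

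The comparison of rTg4510 with tTA mice asked which members differ where the tau transgene is the only difference in genotype. At 4.7 months, 8 members passed the test (7.08%, against 9.1% of all genes): 5 were higher and 3 lower in rTg4510 mice (5.73% and 3.38% of all genes). At 6.1 months, 17 passed (15%, against 14.9% of all genes), 8 higher and 9 lower (6.23% and 8.64% of all genes). With each array centred on its median, the split at 6.1 months was 7 higher and 14 lower, beside 1014 higher and 2155 lower over all probe sets in that setting (1253 and 1601 without the centring). The members therefore passed about as often as genes in general, a baseline that includes dim genes. Most members, 95, were brighter than the median probe set. With brighter probe sets alone, 7 of these passed at 4.7 months and 19 at 6.1 months. In that setting, 1562 and 2745 of 11313 probe sets passed, so the members passed less often than bright probe sets at both ages. This gap was not tested. The median difference of the members was 0.00 at 4.7 months and -0.01 at 6.1 months, beside -0.01 and -0.02 over all genes. Their median absolute difference was 0.04 and 0.07, beside 0.06 and 0.08. At an unadjusted p under 0.05 there were 18 and 34 members, beside 2637 and 3146 of all 11807 genes. The counts at an unadjusted p under 0.05 given below for smaller groups at these ages are to be read beside those.

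In the same direction at both ages, 6 members passed: Rab29, Rab13, Snx18 and Atp6v0e rose, and Rab8b and Rab40b fell. Over all genes, 5.73% passed in the same direction at both ages. The 6 were 75% of the members called at 4.7 months and 35.3% of those called at 6.1 months, beside 62.9% and 38.5% for all genes. In all, 19 members passed at 1 age or both (18.3% of all genes did). With the choroid plexus score in the fit, 3 members passed at 4.7 months, while the calls over all probe sets went from 1691 to 772. The calls of Rab13 (0.38, adjusted p = 0.0517), Rab40b (-0.27, adjusted p = 0.0572), Rab8b (-0.23, adjusted p = 0.0869), Vps29 (-0.10, adjusted p = 0.166) and Atp6v0e were lost, and at 6.1 months those of Rab3a, Snx22 and Vps52. With only these groups in the fit, 11 members passed at 6.1 months, and the calls over all probe sets went from 2854 to 1994. No member separated rTg4510 from tTA mice without overlap at 4.7 months (0.11% of all genes did), and 3 did at 6.1 months, Snx5, Snx18 and Snx19 (3.29% of all genes).

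**Figure D1:**
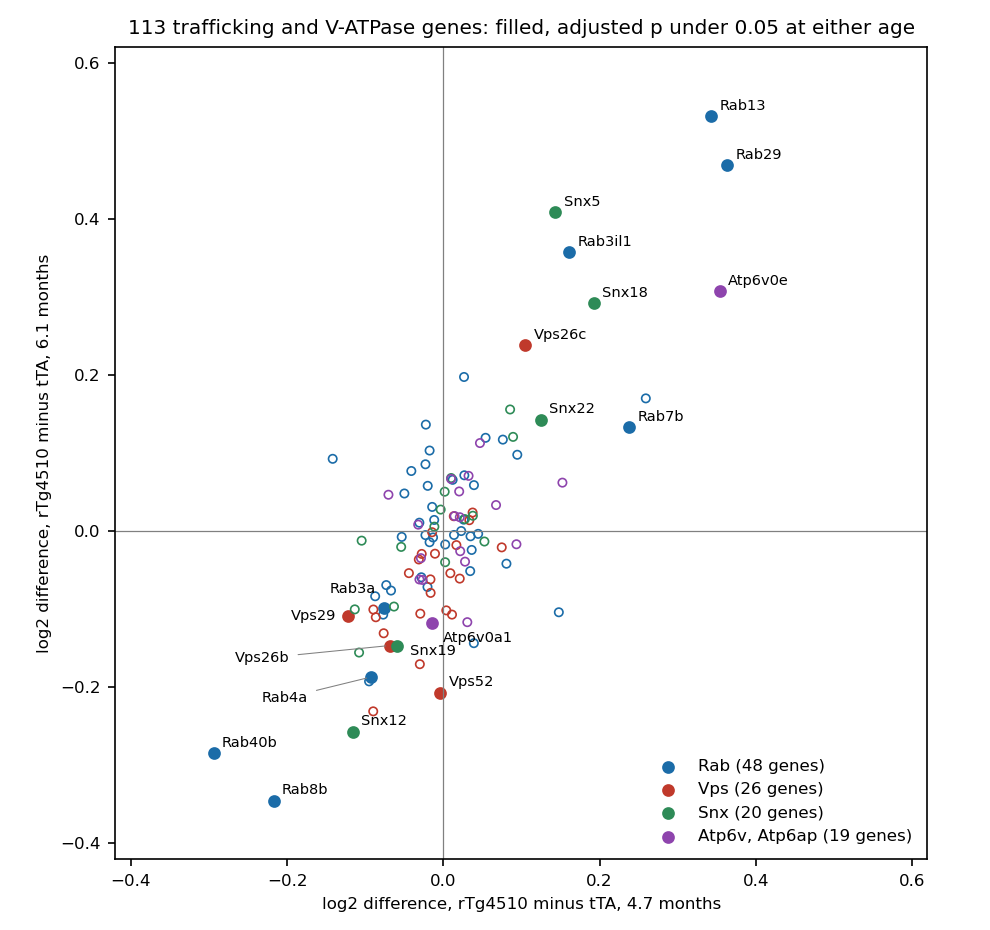
Difference between rTg4510 and tTA mice (log2) at 4.7 months on the x axis and at 6.1 months on the y axis, with 1 point for each member, coloured by gene family and filled where it passed the test at either age. Most members lie near 0 on both axes, and the 6 called at both ages lie in the upper right (Rab29, Rab13, Snx18, Atp6v0e) and lower left (Rab8b, Rab40b).

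Rab8b and Rab40b were the members with the largest falls at both ages. Rab8b, an exocytic Rab that acts between the Golgi, endosomes and the plasma membrane, measured 8.22, 8.34 and 8.73 (lowest, median and highest) in rTg4510 mice at 4.7 months and 8.40, 8.59 and 8.77 in tTA mice. At 6.1 months, it measured 8.12, 8.22 and 8.35 in rTg4510 and 8.27, 8.59 and 8.72 in tTA mice. In rTg4510 mice, 7 of 10 lay below every tTA mouse at 4.7 months and 5 of 6 at 6.1 months. The difference was -0.22 ± 0.07 (SE), or 1.16-fold, at 4.7 months (limma adjusted p = 0.0407) and -0.35 ± 0.05, or 1.27-fold, at 6.1 months (adjusted p = 5.3e-05). At 4.7 months, the call was lost without any 1 of 14 mice, with adjusted p up to 0.0831, and in the plain linear model (adjusted p = 0.0533), and at 6.1 months no single mouse decided it. A second, dim probe set of Rab8b did not follow, with 0.05 and 0.01, and the mean of both gave -0.08 (adjusted p = 0.319) at 4.7 months.

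Rab40b, a Rab with a SOCS box that serves as an adaptor of a Cullin5 ubiquitin ligase, measured 7.16, 7.59 and 7.67 in rTg4510 and 7.54, 7.74 and 8.10 in tTA mice at 4.7 months. Values at 6.1 months were 7.06, 7.32 and 7.49 in rTg4510 and 7.33, 7.58 and 7.97 in tTA mice. The groups overlapped at both ages, with 4 of 10 and 3 of 6 rTg4510 mice below every tTA mouse. The difference was -0.29 ± 0.07, or 1.23-fold, at 4.7 months (adjusted p = 0.0103) and -0.28 ± 0.08, or 1.22-fold, at 6.1 months (adjusted p = 0.0118). Without rTg4510 mouse 7, the later value was -0.23 (adjusted p = 0.0528). The second probe set of Rab40b also fell, by 0.30 (adjusted p = 0.0221) and by 0.24 (adjusted p = 0.0411). DN mice measured still higher, at 7.75, 7.94 and 8.16 at 4.7 months and 7.82, 7.95 and 8.24 at 6.1 months.

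Among the members that rose at both ages, Rab13 and Rab29 had the largest differences at 6.1 months, and Rab29 and Atp6v0e at 4.7 months. Rab29, which brings the kinase LRRK2 to Golgi and lysosome membranes, measured 5.27, 5.90 and 6.15 in rTg4510 and 5.08, 5.52 and 5.84 in tTA mice at 4.7 months. At 6.1 months, it measured 5.61, 6.00 and 6.13 in rTg4510 and 5.11, 5.51 and 5.77 in tTA mice. Most rTg4510 mice lay above every tTA mouse, 7 of 10 at 4.7 months and 4 of 6 at 6.1 months. The differences were 0.36 ± 0.09, or 1.29-fold (adjusted p = 0.0122), and 0.47 ± 0.10, or 1.38-fold (adjusted p = 0.00224).

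Rab13, which directs vesicles to epithelial and endothelial junctions, measured 4.83, 5.23 and 5.68 in rTg4510 and 4.55, 4.85 and 5.27 in tTA mice at 4.7 months. In the mice of 6.1 months it measured 5.24, 5.47 and 5.85 in rTg4510 and 4.49, 5.02 and 5.29 in tTA mice. At the later age, 5 of 6 rTg4510 mice exceeded every tTA mouse, against 4 of 10 at the earlier. The differences were 0.34 ± 0.10, or 1.27-fold (adjusted p = 0.0295), and 0.53 ± 0.10, or 1.45-fold (adjusted p = 0.000553), the latter the largest rise of any member between rTg4510 and tTA mice. The 4.7-month call was lost without any 1 of 8 mice (adjusted p up to 0.075). The vascular marker score was higher by 0.16 and 0.21 in rTg4510 mice, and its part in the rise was not tested.

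Snx18, a sorting nexin with SH3 and BAR domains that acts in endocytosis and autophagosome formation, measured 7.29, 7.40 and 7.49 in rTg4510 and 7.07, 7.22 and 7.42 in tTA mice at 4.7 months. At 6.1 months, it measured 7.29, 7.39 and 7.55 in rTg4510 and 6.82, 7.17 and 7.25 in tTA mice, so that the 2 groups no longer overlapped. The differences were 0.19 ± 0.05, or 1.14-fold (adjusted p = 0.00615), and 0.29 ± 0.06, or 1.22-fold (adjusted p = 0.00248). A second probe set of Snx18 measured 0.09 (adjusted p = 0.409) and 0.20 (adjusted p = 0.124).

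Atp6v0e, the small e subunit of the V0 sector, measured 8.05, 8.25 and 8.67 in rTg4510 and 7.68, 7.90 and 8.28 in tTA mice at 4.7 months. Measured at 6.1 months, it had 8.22, 8.36 and 8.78 in rTg4510 and 7.94, 8.08 and 8.55 in tTA mice. The groups overlapped at both ages, with 5 of 10 and 2 of 6 rTg4510 mice above every tTA mouse. The differences were 0.35 ± 0.10, or 1.28-fold (adjusted p = 0.0253), and 0.31 ± 0.09, or 1.24-fold (adjusted p = 0.0291). With the choroid plexus score in the fit, they were 0.15 (adjusted p = 0.339) and 0.24 (adjusted p = 0.0409). The 4.7-month call was also lost without rTg4510 mouse 42, 43 or 44 or tTA mouse 60 or 67 (adjusted p up to 0.0639), and the 6.1-month call without rTg4510 mouse 7 (0.24, adjusted p = 0.116) or 10 (0.26, adjusted p = 0.0963).

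**Figure D2:**
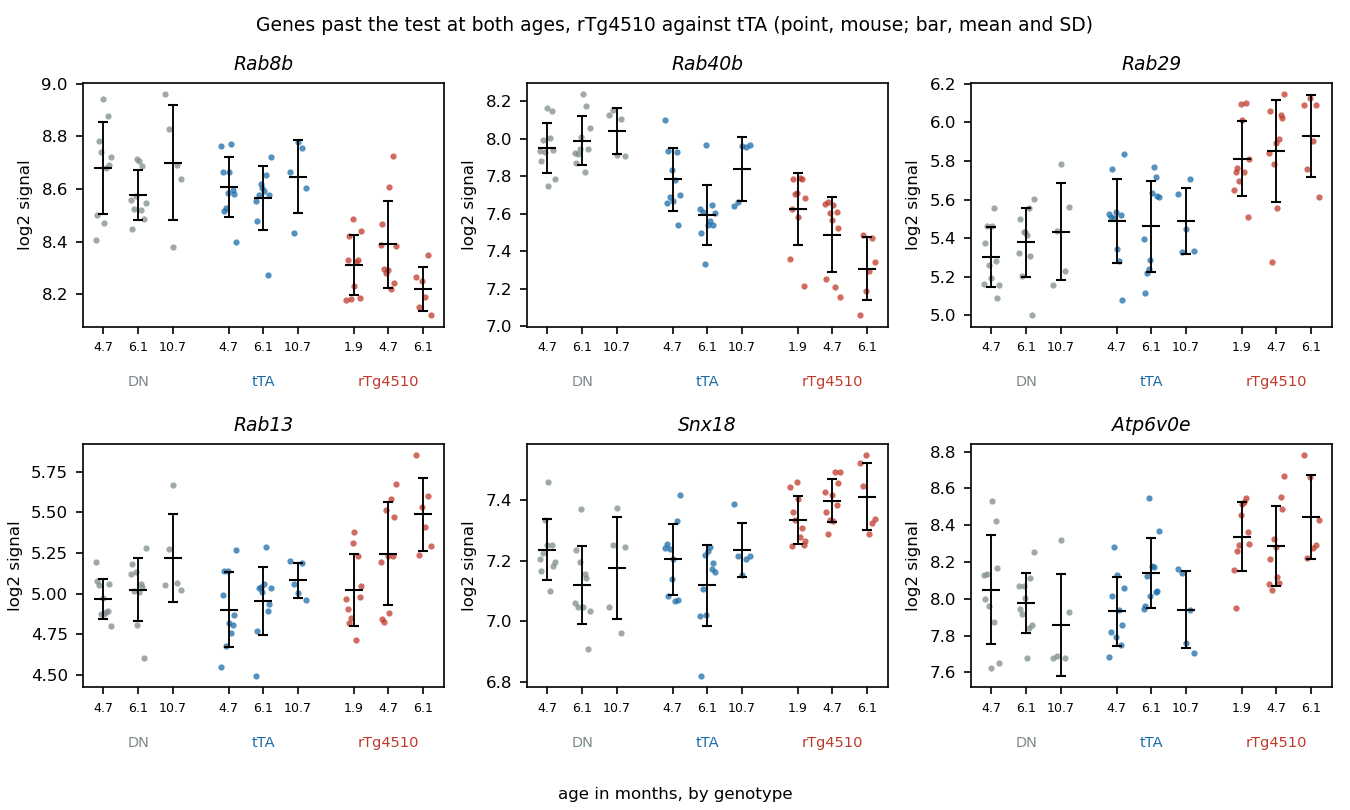
Log2 signal (y axis) of the 6 members called at both ages in each mouse, by genotype and age, with 1 point per mouse and bars at the group mean and SD. Rab29, Rab13, Snx18 and Atp6v0e lie higher in rTg4510 than in tTA mice of the same age, Rab8b and Rab40b lie lower, and single mice of the groups overlap except for Snx18 at 6.1 months.

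The 10 rTg4510 mice of 1.9 months had no control of their age. In them, Rab8b measured 8.18, 8.33 and 8.49 and Rab40b 7.22, 7.70 and 7.79. Rab29 measured 5.51, 5.75 and 6.10, Rab13 4.71, 4.97 and 5.38, Snx18 7.25, 7.32 and 7.46 and Atp6v0e 7.95, 8.33 and 8.55. All of these ranges overlapped those of the 4.7-month rTg4510 mice, and none of the 6 passed limma's F test over the 3 ages of rTg4510 mice. Rab13 had rising means of 5.02, 5.25 and 5.49 (unadjusted p = 0.0037, adjusted p = 0.0868). Rab40b had falling means of 7.62, 7.49 and 7.31 (unadjusted p = 0.00798, adjusted p = 0.131). For Rab8b, Rab29, Snx18 and Atp6v0e, the adjusted p was 0.328, 0.828, 0.544 and 0.667.

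Of the 4 retromer core genes, Vps29 fell at 4.7 months and Vps26b at 6.1 months, while Vps35 and Vps26a did not pass at either age. Vps29, the small subunit that binds regulators of retromer, measured 10.03, 10.16 and 10.31 in rTg4510 and 10.20, 10.29 and 10.39 in tTA mice at 4.7 months, with 7 of 10 rTg4510 mice below every tTA mouse. Its difference was -0.12 ± 0.03, or 1.09-fold (adjusted p = 0.0273), and another of its 3 probe sets gave -0.16 (adjusted p = 0.0162). The call was lost without rTg4510 mouse 43 or 44 or tTA mouse 60 or 62 (adjusted p up to 0.0692). At 6.1 months, it measured 10.03, 10.06 and 10.24 in rTg4510 and 10.08, 10.19 and 10.37 in tTA mice, a difference of -0.11 ± 0.04 (adjusted p = 0.0858), which passed without rTg4510 mouse 8 (adjusted p = 0.0298) or tTA mouse 16 (adjusted p = 0.0497).

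Vps26b, the paralog of Vps26a, measured 8.38, 8.47 and 8.63 in rTg4510 and 8.56, 8.62 and 8.70 in tTA mice at 6.1 months. In rTg4510 mice, 5 of 6 lay below every tTA mouse. The difference was -0.15 ± 0.04, or 1.11-fold (adjusted p = 0.0176), and without rTg4510 mouse 8 it was -0.13 (adjusted p = 0.058). A second probe set gave -0.06, and the mean of both -0.10 (adjusted p = 0.0661). At 4.7 months, the difference was -0.07 (adjusted p = 0.327). The scaffold subunit Vps35 measured 10.08, 10.14 and 10.18 in rTg4510 and 10.07, 10.21 and 10.25 in tTA mice at 6.1 months. Its differences were -0.01 (adjusted p = 0.904) and -0.03 (adjusted p = 0.728) at the 2 ages. Those of Vps26a were 0.01 (adjusted p = 0.88) and 0.02 (adjusted p = 0.808), with a 95% interval from -0.05 to 0.09 at 6.1 months.

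Among the 6 sorting nexins that work with retromer or sort similar cargo, Snx5 rose and Snx12 fell at 6.1 months. Snx5, which pairs with Snx1 or Snx2 to form tubules from endosomes, measured 8.32, 8.53 and 8.64 in rTg4510 and 7.78, 8.12 and 8.26 in tTA mice. The groups did not overlap. Its difference of 0.41 ± 0.06, or 1.33-fold, had the smallest adjusted p of any member between rTg4510 and tTA mice (1.64e-05), and its 3 other probe sets rose as well, by 0.29, 0.22 and 0.19. At 4.7 months, Snx5 measured 8.12, 8.38 and 8.49 in rTg4510 and 8.04, 8.20 and 8.34 in tTA mice, with 5 of 10 rTg4510 mice above every tTA mouse and a difference of 0.14 ± 0.05 (adjusted p = 0.103). Snx12, a close relative of Snx3, fell by 0.26 ± 0.07 (adjusted p = 0.016), with 3 of 6 rTg4510 mice below every tTA mouse. Its second probe set gave 0.02, and the call was lost without rTg4510 mouse 7 (-0.23, adjusted p = 0.0528) or 8 (-0.22, adjusted p = 0.0553).

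Of the 2 members counted here under retriever, a complex that recycles other cargo from endosomes, Vps26c rose at 6.1 months. It measured 7.62, 7.70 and 7.87 in rTg4510 and 7.26, 7.48 and 7.66 in tTA mice. The difference was 0.24 ± 0.06, or 1.18-fold (adjusted p = 0.00614), with 4 of 6 rTg4510 mice above every tTA mouse, and at 4.7 months it was 0.11 (adjusted p = 0.242). Among the 14 other sorting nexins, 2 rose and 1 fell at 6.1 months. Snx19 measured 7.93, 8.07 and 8.09 in rTg4510 and 8.10, 8.18 and 8.25 in tTA mice, 2 groups that did not overlap although the difference was only -0.15 ± 0.03, or 1.11-fold (adjusted p = 0.00313). A second probe set of Snx19 gave -0.20 (adjusted p = 0.04). Snx22 rose by 0.14 ± 0.05 (adjusted p = 0.0371), but its second probe set gave -0.09, and the call was lost without any 1 of 8 mice (adjusted p up to 0.144) and with each array centred on its median (0.11, adjusted p = 0.147).

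**Figure D3:**
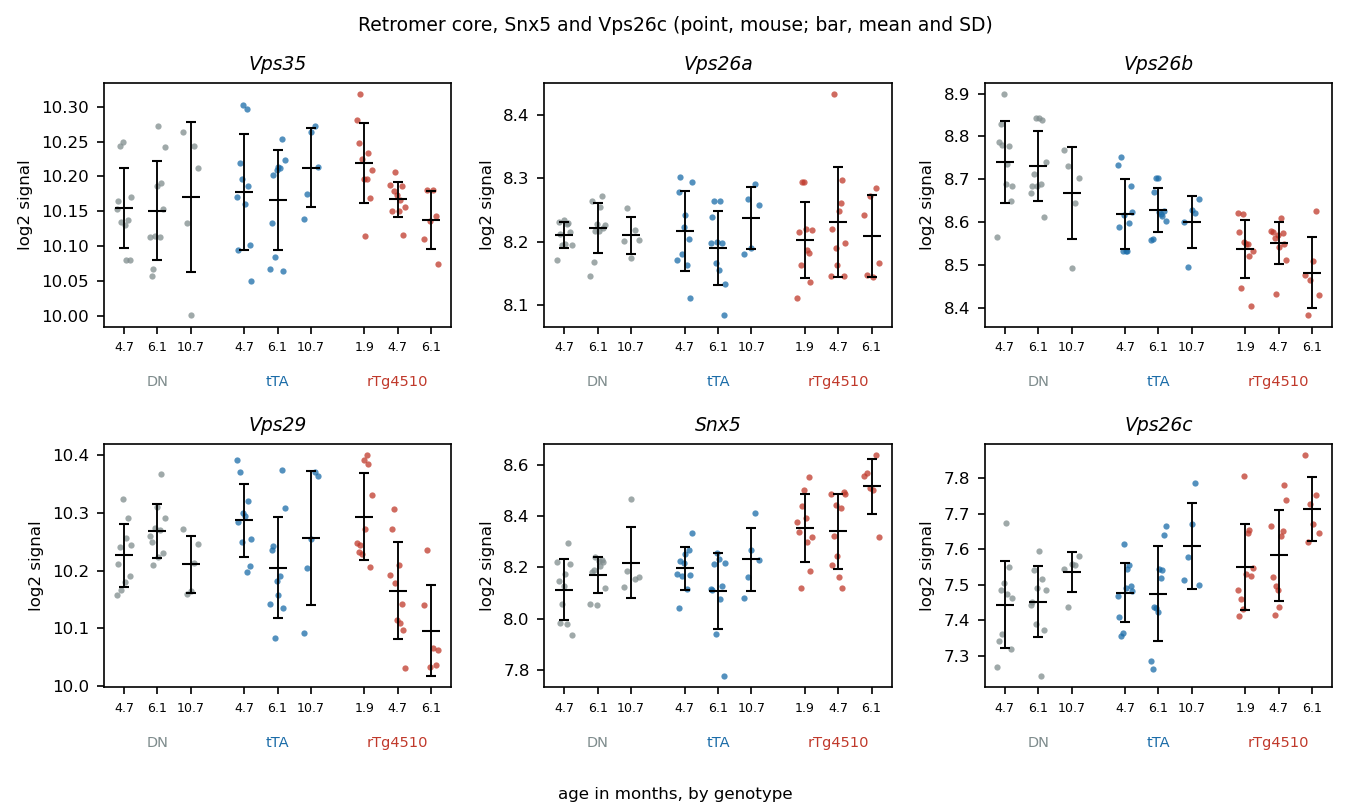
Log2 signal (y axis) of the 4 retromer core genes, Snx5 and Vps26c in each mouse by genotype and age, with 1 point per mouse and bars at the group mean and SD. Vps35 and Vps26a overlap widely between rTg4510 and tTA mice, Vps26b lies lower in 5 of 6 rTg4510 mice at 6.1 months, and Snx5 separates the 2 genotypes at that age.

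Of the 9 early endosome Rabs, none passed limma's test or the plain linear model at 4.7 months, and at 6.1 months Rab4a did. At an unadjusted p under 0.05 there were 3 and 4, beside 2637 and 3146 of all 11807 genes. Differences ran in both directions, from -0.09 to 0.26 at 4.7 months and from -0.19 to 0.20 at 6.1 months. Rab4a, which acts in fast recycling to the plasma membrane, measured 8.46, 8.65 and 8.72 in rTg4510 and 8.71, 8.84 and 8.95 in tTA mice. It fell by 0.19 ± 0.05, or 1.14-fold (adjusted p = 0.00741), with 4 of 6 rTg4510 mice below every tTA mouse. A second probe set gave -0.21 (adjusted p = 0.0741). Rab5a, Rab7 and Rab11a, chosen after their values were seen because they define the early, late and recycling compartments, differed by between -0.02 and 0.07 and did not pass. Not all their relatives were so flat: Rab5c had means of 7.88 in rTg4510 and 7.68 in tTA mice at 6.1 months, also without a call. Against DN mice, Rab11a was called higher at 4.7 months.

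Among the 6 Rabs of late endosomes and lysosomes, Rab29 and Rab7b rose at 4.7 months and Rab29 alone at 6.1 months. Rab7b, which acts between late endosomes and the Golgi, measured 4.22, 4.41 and 4.60 in rTg4510 and 3.96, 4.18 and 4.30 in tTA mice at 4.7 months, below the median probe set. There, 8 of 10 rTg4510 mice lay above every tTA mouse, and the difference was 0.24 ± 0.05, or 1.18-fold (adjusted p = 0.00133). At 6.1 months it was 0.13 (adjusted p = 0.231), and the second probe set gave 0.18 (adjusted p = 0.293) at 4.7 months.

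In regulated secretion, Rab3a, the main Rab of synaptic vesicles, fell at 6.1 months, and the 5 other genes of the group did not pass. It measured 10.89, 10.99 and 11.12 in rTg4510 and 11.05, 11.08 and 11.16 in tTA mice, with 5 of 6 rTg4510 mice below every tTA mouse. The difference was -0.10 ± 0.03 (adjusted p = 0.0489), and the call was lost without any 1 of 21 mice (adjusted p up to 0.167). Rab3il1, an exchange factor for Rab3a and Rab8 proteins, rose, with 5.55, 5.73 and 5.96 in rTg4510 and 5.05, 5.42 and 5.95 in tTA mice. The difference was 0.36 ± 0.09, or 1.28-fold (adjusted p = 0.01). The highest tTA value belonged to mouse 21, and without it the difference was 0.42 (adjusted p = 0.0003).

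Of the 10 V1 genes, none passed limma's test or the plain linear model at 4.7 or 6.1 months, and 0 had an unadjusted p under 0.05. Their median difference was 0.01 at both ages, and their 95% intervals lay within -0.20 and 0.21 at 4.7 months and within -0.26 and 0.24 at 6.1 months. The catalytic subunit Atp6v1a measured 0.01 and 0.07, and the brain B subunit Atp6v1b2 0.01 and 0.02. The other V1 differences at 4.7 and 6.1 months were -0.03 and -0.06 for Atp6v1d, -0.03 and 0.01 for Atp6v1e1, -0.07 and 0.05 for Atp6v1e2, 0.02 and 0.05 for Atp6v1f, -0.03 and -0.03 for Atp6v1g2 and 0.03 and 0.07 for Atp6v1h. For the dim isoforms typical of kidney, Atp6v1b1 measured 0.09 and -0.02, and Atp6v1c2 0.03 and -0.12. Atp6v1e2 was dim as well, with a mean of 3.24 over the 76 arrays. Since Atp6v1c1, Atp6v1g1 and Atp6v0c were not among the members, the dim Atp6v1c2 alone stood for the C subunit.

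Of the 7 V0 genes, Atp6v0e rose at both ages and Atp6v0a1, the a subunit isoform of neurons and synaptic vesicles, fell at 6.1 months, with 2 and 3 at an unadjusted p under 0.05. Atp6v0a1 measured 10.43, 10.48 and 10.59 in rTg4510 and 10.55, 10.61 and 10.71 in tTA mice, with 5 of 6 rTg4510 mice below every tTA mouse. The difference was -0.12 ± 0.03, or 1.08-fold (adjusted p = 0.0151). Its 3 other probe sets gave 0.36, 0.11 and -0.11, and the mean of all 4 gave 0.06, so the direction depended on the probe set. With only rTg4510 and tTA mice in the fit, the call was lost (adjusted p = 0.0548). At 4.7 months, Atp6v0a1 differed by -0.01 (adjusted p = 0.892). The other V0 genes did not pass: Atp6v0a2 measured 0.15 (adjusted p = 0.088) and 0.06, Atp6v0a4 0.05 and 0.11, Atp6v0b 0.07 and 0.03, Atp6v0d1 -0.03 and -0.06 and Atp6v0e2 0.02 and -0.03. Both accessory proteins also stayed within the spread, with 0.03 and -0.04 for Atp6ap1 and 0.02 and 0.02 for Atp6ap2, the prorenin receptor.

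**Figure D4:**
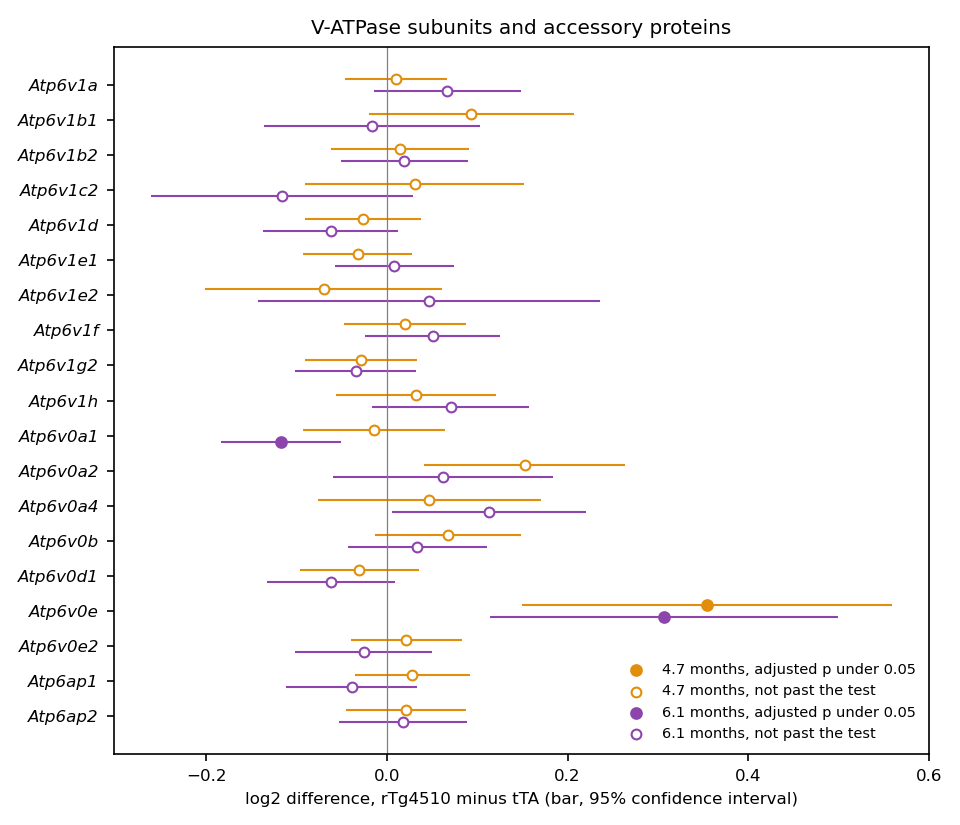
Difference between rTg4510 and tTA mice (log2, x axis) for each of the 19 V-ATPase genes at 4.7 and 6.1 months, with 95% intervals, grouped by V1 sector, V0 sector and accessory proteins. Atp6v0e lies farthest from 0, at 0.35 and 0.31, and the other points lie between -0.12 and 0.15.

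Between rTg4510 and tTA mice, the complexes that tether and sort late endosomes held almost no calls, beside 9.1% and 14.9% of all genes. In groups this small, so few calls do not set them apart from genes in general. None of the 5 HOPS and CORVET genes passed limma's test at either age, with medians of -0.03 and -0.05, and none of the 8 ESCRT genes, with medians of 0.01 and -0.06. In each group, 0 genes had an unadjusted p under 0.05 at 4.7 months and 2 did at 6.1 months, where the plain linear model called 1. Against DN mice at 6.1 months, Vps16, Vps37b and Vps4a were called lower, and Vps37b also at 4.7 months. The groups did not overlap for Vps37b at 6.1 months. Of the 4 GARP and EARP genes, which tether vesicles at the Golgi and at recycling endosomes, Vps52 fell at 6.1 months. It measured 7.07, 7.23 and 7.37 in rTg4510 and 7.22, 7.42 and 7.66 in tTA mice, a difference of -0.21 ± 0.06 (adjusted p = 0.0309) that was lost without any 1 of 7 mice (adjusted p up to 0.0959).

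Genes that work with the members were counted in 7 lists. Their counts are to be read beside the 9.1% and 14.9% of all genes that passed at 4.7 and 6.1 months. With the choroid plexus score in the fit, the calls over all probe sets went from 1691 to 772 at 4.7 months. For the lists, counts in that setting are not given here. Of 18 other ESCRT genes, none passed limma's test at either age (1 and 2 at an unadjusted p under 0.05, and 0 and 1 called by the plain linear model), and Hgs, which captures ubiquitinated cargo, measured -0.01 and -0.15 (adjusted p = 0.0831). Of 12 V-ATPase partners, 3 passed at 4.7 months: Clcn5, an endosomal chloride transporter, rose by 0.25 (adjusted p = 0.042), Tcirg1, the a3 subunit, rose by 0.24 (adjusted p = 0.0147), and Rogdi, a subunit of a V-ATPase assembly factor, fell by 0.13 (adjusted p = 0.0371). None passed limma's test at 6.1 months (2 at an unadjusted p under 0.05, 1 in the plain linear model), and the lysosomal chloride transporter Clcn7 measured -0.02 and 0.03. Of 17 genes of endosomal retrieval, 1 rose and 1 fell at 4.7 months and 2 fell at 6.1 months. Washc2, a WASH complex subunit that binds retromer, fell by 0.17 (adjusted p = 0.0259) and by 0.21 (adjusted p = 0.00501), Sorl1, a sorting receptor carried by retromer, fell by 0.21 at 6.1 months (adjusted p = 0.00657), and Ehd4, which shapes recycling membranes, rose by 0.56 at 4.7 months (adjusted p = 4.09e-05).

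Of 24 genes of the Rab cycle, 1 rose and 2 fell at 4.7 months, and 1 rose and 4 fell at 6.1 months. Sytl4, an effector of Rab27 proteins on secretory granules, fell by 0.37 (adjusted p = 0.00211) and by 0.46 (adjusted p = 0.000327). Mical1, an effector of Rab proteins that oxidises actin, rose by 0.44 (adjusted p = 0.00513) and by 0.30 (adjusted p = 0.0368). Rabggta, a subunit of the enzyme that attaches lipid to Rabs, fell by 0.16 (adjusted p = 0.0294) and by 0.17 (adjusted p = 0.0412). Of 18 genes of early endosomes and phosphoinositides, Inpp5d, a phosphatase of blood and microglial cells, rose by 0.42 and by 0.67 (adjusted p = 2.08e-06 at 6.1 months), and Rin1, a neuronal exchange factor for Rab5, fell by 0.16 at 4.7 months. Of 23 clathrin and adaptor genes, none passed limma's test at 4.7 months (1 at an unadjusted p under 0.05, 0 in the plain linear model), and 1 rose and 4 fell at 6.1 months, led by Ap3s2 (-0.26), Ap1s1 (0.23), Ap3b2 (-0.20) and Ap2a1 (-0.18).

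Lysosome genes gave other counts than the endosome genes that share their pathway. Of 25 measured, 19 rose and none fell at each age, with medians of 0.37 and 0.42. Among all genes, 5.73% rose and 3.38% fell at 4.7 months, and 6.23% rose and 8.64% fell at 6.1 months. The macrophage membrane protein Cd68 rose by 1.48 and 1.92, the protease Ctss by 0.95 and 1.45, the protease Ctsd by 0.68 and 0.80, the progranulin gene Grn by 0.54 and 0.62 and the membrane protein Lamp1 by 0.21 and 0.25. Cd68 and Ctss also stand in the microglia list, whose score rose beside them, and the part of microglia in these rises was not tested.

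Between 1.9 and 6.1 months, 2 members passed limma's test over the 3 ages of rTg4510 mice (2.87% of all genes did). At an unadjusted p under 0.05 there were 19 members, beside 1987 of 11807 genes. Vps29 had group means of 10.29, 10.17 and 10.10 at 1.9, 4.7 and 6.1 months (adjusted p = 0.0227), with 10.21, 10.26 and 10.40 as lowest, median and highest at 1.9 months. The call was lost without rTg4510 mouse 85 or 10 (adjusted p up to 0.0544). Atp6v0a4, a dim kidney isoform, had means of 3.20, 3.33 and 3.37 (adjusted p = 0.0472) and lost the call without any 1 of 19 mice (adjusted p up to 0.0926). In tTA mice, 1 member passed (0.296% of all genes). Rab3b, a Rab of secretory vesicles, measured 6.88, 7.02 and 7.29 at 4.7 months and 7.18, 7.58 and 7.66 at 6.1 months. At 10.7 months it measured 7.01, 7.16 and 7.36, so its highest mean was at the middle age (adjusted p = 0.00341 over the 3 ages). The DN means of Rab3b at these ages were 7.07, 7.30 and 7.11 (adjusted p = 0.586). Its difference between tTA and DN mice was not shown to vary among the ages (limma F test, unadjusted p = 0.227). In DN mice, none passed limma's test (0.364% of all genes did), with 11 at an unadjusted p under 0.05 (1500 of 11807 genes) and none in the plain linear model.

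Whether the difference between rTg4510 and tTA mice itself changed from 4.7 to 6.1 months was tested directly. By limma, no member passed (0% of all genes did), 6 had an unadjusted p under 0.05 (957 of 11807 genes), and the plain linear model also called none. Snx5 had the smallest p, with a change of 0.27 ± 0.08 between the 2 differences (unadjusted p = 0.00165, adjusted p = 0.356). The members called at 1 age alone, Vps26b and Vps29 among them, are therefore not shown to differ between ages.

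The comparison of tTA with DN mice asked how mice with tTA alone differ from mice with neither transgene. At 4.7 months, 4 members passed (4.67% of all genes), 2 higher and 2 lower in tTA mice (1.51% and 3.16% of all genes), and with each array centred on its median 1 was higher and 2 lower (298 and 581 over all probe sets). At 6.1 months, 7 passed (6.32% of all genes), 3 higher and 4 lower (2.7% and 3.62%), and at 10.7 months 1 did, a fall (1.1% of all genes in either direction and 0.762% downward). No member separated the groups without overlap at 4.7 months (0.974% of all genes did), and the groups did not overlap for Rab3c alone at 6.1 months (1.17% of all genes) and for Rab27b, Rab4a and Rab4b at 10.7 months (3.02%). The median differences of the members were 0.01, 0.00 and 0.01.

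Rab27b, which docks secretory granules and multivesicular endosomes at the plasma membrane, measured lower with tTA than without it at all 3 ages. At 4.7 months, it measured 6.89, 7.09 and 7.28 in tTA and 7.19, 7.45 and 7.60 in DN mice. Values at 6.1 months were 6.91, 7.16 and 7.38 in tTA and 7.35, 7.50 and 7.67 in DN mice. Most tTA mice lay below every DN mouse, 8 of 10 at 4.7 months and 7 of 10 at 6.1 months. At 10.7 months, the tTA mice measured 7.08, 7.30, 7.10, 7.21 and 7.19 and the DN mice 7.58, 7.53, 7.36, 7.60 and 7.57. These groups did not overlap. The differences were -0.31 ± 0.06 (adjusted p = 0.0013), -0.36 ± 0.06 (adjusted p = 0.000179) and -0.35 ± 0.07 (adjusted p = 0.0241), or 1.24-, 1.28- and 1.28-fold. A second probe set gave -0.32, -0.38 and -0.20. At 10.7 months, the call was lost without any 1 of 8 of the 10 mice (adjusted p up to 0.0795) and in the plain linear model. Between rTg4510 and tTA mice, Rab27b differed by 0.08 (adjusted p = 0.517) and -0.04 (adjusted p = 0.784).

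Rab40b fell with tTA as well, with a difference from DN mice of -0.40 ± 0.07 at 6.1 months, or 1.32-fold (adjusted p = 0.000184), with 9 of 10 tTA mice below every DN mouse. At 4.7 months, it differed by -0.17 (adjusted p = 0.262), and at 10.7 months by -0.20 (adjusted p = 0.524). Its second probe set gave -0.26, -0.49 and -0.37 (adjusted p = 0.0817, 1.47e-05 and 0.0361). Rab40b thus stood in descending order in DN, tTA and rTg4510 mice at both shared ages, with overlap between neighbours. Beside these values, the dentate granule score of tTA mice lay below that of DN mice by 0.67, 0.91 and 0.95 at 4.7, 6.1 and 10.7 months. It ranged from 5.77 to 6.12, from 5.60 to 5.88 and from 5.56 to 5.81 in tTA mice and from 6.30 to 6.79, from 6.53 to 6.76 and from 6.45 to 6.80 in DN mice, with 5, 6 and 5 of its 7 measured markers called lower and 1 higher at 4.7 months. Its part in the differences of Rab27b and Rab40b was not tested.

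Rab15, which acts on early and recycling endosomes, was higher in tTA than in DN mice. At 4.7 months, it measured 10.13, 10.23 and 10.32 in tTA and 10.05, 10.09 and 10.22 in DN mice, and at 6.1 months 10.02, 10.20 and 10.31 in tTA and 9.90, 9.98 and 10.18 in DN mice. The groups overlapped at both ages. The differences were 0.12 ± 0.03 (adjusted p = 0.0239, or 0.0541 without tTA mouse 64) and 0.19 ± 0.04 (adjusted p = 0.00567), and at 10.7 months 0.14 (adjusted p = 0.559).

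Rab3c, a Rab of synaptic and secretory vesicles, fell by 0.30 ± 0.08 at 6.1 months (adjusted p = 0.0135), with 7.54, 8.18 and 8.33 in tTA and 8.33, 8.38 and 8.54 in DN mice. The lowest tTA value was that of mouse 21, an array that stood apart in its group, and without it the difference was -0.24 (adjusted p = 0.0109). Without the 6.1-month mice whose numbers start at 75, it was -0.28 (adjusted p = 0.0926). At 4.7 and 10.7 months, Rab3c differed by -0.02 and -0.02. Rab31, which moves cargo from the Golgi to endosomes, rose by 0.22 at 6.1 months (adjusted p = 0.0366), with 8.45, 8.60 and 8.74 in tTA and 8.10, 8.35 and 8.56 in DN mice, and lost the call without any 1 of 11 mice (adjusted p up to 0.0763). Atp6v1c2 fell by 0.22 ± 0.06 at 4.7 months (adjusted p = 0.0275), with 2.83, 3.13 and 3.23 in tTA and 3.12, 3.31 and 3.71 in DN mice, a dim signal whose call was lost without any 1 of 4 mice (adjusted p up to 0.064). No member passed limma's test of whether the difference between tTA and DN mice varied among the 3 ages (0.0423% of all genes did). At an unadjusted p under 0.05 there were 7 members (647 of 11807 genes), and the plain linear model called none.

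**Figure D5:**
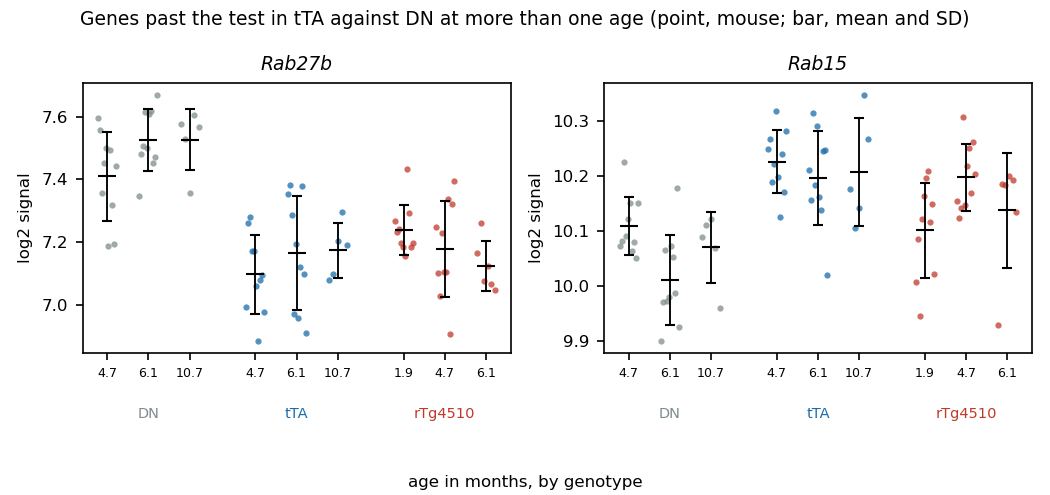
Log2 signal (y axis) of Rab27b and Rab15 in each mouse by genotype and age, with 1 point per mouse and bars at the group mean and SD. Rab27b lies below the DN level in tTA mice at 4.7, 6.1 and 10.7 months, with rTg4510 mice near the tTA level, and Rab15 lies higher in tTA mice with overlap.

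Against DN mice, rTg4510 mice differ in both transgenes. This comparison shares its rTg4510 mice with the first comparison and its DN mice with the second, so its values are given only beside theirs. At 4.7 months, 13 members passed (15.8% of all genes), 5 higher and 8 lower (7.85% and 7.91% of all genes), or 8 and 7 with the arrays quantile normalized again (1470 and 1610 over all probe sets). At 6.1 months, 26 passed (19.9% of all genes), 10 higher and 16 lower (8.55% and 11.4% of all genes), or 8 and 21 with each array centred on its median (1266 and 3030 over all probe sets). The groups did not overlap for 1 member at 4.7 months (1.31% of all genes), Rab40b, and for 9 at 6.1 months (7.14%).

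Rab40b had the largest fall of any member in this comparison, -0.46 ± 0.07 at 4.7 months (adjusted p = 2.26e-05) and -0.68 ± 0.08 at 6.1 months (adjusted p = 1.18e-07), with every rTg4510 mouse below every DN mouse at both ages. Rab27b differed by -0.23 (adjusted p = 0.00958) and -0.40 (adjusted p = 7.88e-05), and Rab8b by -0.29 (adjusted p = 0.00243) and -0.36 (adjusted p = 1.88e-05). Vps26b fell at both ages, by 0.19 ± 0.04 (adjusted p = 0.000647) and by 0.25 ± 0.04 (adjusted p = 5.68e-05), beside differences between tTA and DN mice of -0.12 (adjusted p = 0.075) and -0.10 (adjusted p = 0.101). Its rTg4510 values at 4.7 months were 8.43, 8.57 and 8.61, against 8.57, 8.76 and 8.90 in DN mice, and 5 of 10 lay below every DN mouse.

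Rab29 rose by 0.55 ± 0.09 (adjusted p = 5.61e-05) and by 0.55 ± 0.10 (adjusted p = 0.000258), Snx5 by 0.23 (adjusted p = 0.00311) and by 0.34 (adjusted p = 0.000101) and Snx18 by 0.16 (adjusted p = 0.0134) and by 0.29 (adjusted p = 0.00182). Rab13 and Atp6v0e passed at 6.1 months, with 0.46 (adjusted p = 0.00158) and 0.47 (adjusted p = 0.000566), and not at 4.7 months, with 0.28 (adjusted p = 0.0633) and 0.24 (adjusted p = 0.127). Vps29 measured -0.06 (adjusted p = 0.292) and -0.17 (adjusted p = 0.00361), with another of its 3 probe sets at 0.00 at 6.1 months. Of the V-ATPase genes, Atp6v1c2 fell at both ages, by 0.19 (adjusted p = 0.0312) and by 0.24 (adjusted p = 0.0185), Atp6v1d, a rotor subunit, fell by 0.15 (adjusted p = 0.00438) and Atp6v1g2, a neuronal stator isoform, by 0.10 (adjusted p = 0.0378) at 6.1 months, and Atp6ap2 rose by 0.10 (adjusted p = 0.0432), which was lost with each array centred on its median (0.07, adjusted p = 0.295).

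Across the 12 comparisons, 38 members passed at least once and 75 never did, beside 32.2% of all genes that passed at least once.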

How the data were processed

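Hippocampal RNA of 76 female mice was hybridised to Affymetrix mouse arrays, and the authors deposited log2 values from RMA (background correction, quantile normalization and summary per probe set). Arrays give no counts, so the number of mice limits the precision. The p-values set each difference against the spread between mice within groups, which limma moderates over all probe sets. With 1 array per mouse, this spread also holds technical differences. Of 22716 probe sets, 90 controls were left out and 22626 tested. The platform annotation gave 18003 a single gene symbol, 287 several and 4336 none, and 17977 matched RefSeq by gene ID without renaming a member. Scores are means of marker log2 values, and folds are the higher over the lower group. Genotypes were compared within each age by limma 3.58.1 (lmFit and eBayes, R 4.3.3) on all genotypes of that age, two-sided, with Benjamini-Hochberg adjustment over all tested probe sets and a threshold of 0.05. Ages were compared within a genotype by limma's F test, and changes of a difference by interaction terms. Tables and figures used Python 3.11.15, pandas 2.3.3, numpy 2.4.6, scipy 1.17.1 and matplotlib 3.10.9.

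The study describes 1 excluded array of 6.1-month tTA mice; whether it is among the 76 was not given in the sources used here. Members, lists and tests were chosen with earlier results of these data known. Genes named were, in rTg4510 against tTA, the 10 largest called in each direction at each age and all called at both, every V-ATPase and core retromer gene, in tTA against DN those called at 2 ages and the 5 largest, called members of the age tests up to 5, and up to 4 called and 2 other genes of each list. Alternatives were a plain linear model, linear signals, centring, repeated quantile normalization, other samples in the fit, other or averaged probe sets, brighter probe sets alone, a choroid plexus covariate, a fit without those 6.1-month mice whose numbers start at 75, and each mouse left out in turn.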

Additional observations from a re-analysis of the deposited data

Results flagged for a closer look

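In 77 groups of values, the highest or lowest mouse was set against its neighbours, and in 4 it stood apart by Dixon's test, which flags about 1 group in 20 by chance. Rab40b measured 7.967 in tTA mouse 17 at 6.1 months, above the next mouse at 7.647. Rab3il1 measured 5.951 in tTA mouse 21 at 6.1 months, above the next at 5.517. Snx18 measured 6.820 in tTA mouse 14 at 6.1 months, below the next at 7.019. Rab27b measured 7.432 in rTg4510 mouse 87 at 1.9 months, above the next at 7.293. The causes were not tested.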

How the results depend on the processing

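Of 67 called gene values, recomputed under the alternatives apart from single mice, 601 results kept their direction and call, 80 kept the direction without the call and 9 reversed; of 41 values not called, 408 stayed so and 3 passed. The reversals came from other probe sets, for Rab8b (0.0484 and 0.0082 against tTA at both ages, 0.0602 against DN at 4.7 months), Atp6v0a1 (0.356 and 0.108, and 0.0581 for the mean of its probe sets), Snx12 (0.0202), Snx22 (-0.0946) and Vps29 (0.0046 against DN at 6.1 months). Between rTg4510 and tTA mice, 3 members were called at 4.7 months with the choroid plexus covariate, and 11 at 6.1 months with these groups alone in the fit. Between tTA and DN mice, 7 were called at 4.7 months with all 9 groups in the fit and 2 with the compared groups alone, and 0 at 10.7 months in the plain linear model or with averaged probe sets. For age in rTg4510 mice, 4 were called in the plain linear model or with all 9 groups and 1 after repeated quantile normalization. The cause was not tested. With 1 mouse left out in turn, counts for rTg4510 against tTA ran from 4 to 9 at 4.7 months and from 12 to 19 at 6.1 months. The low end at 4.7 months came without rTg4510 mouse 43 or 44 or tTA mouse 60 or 67. For rTg4510 against DN, counts ran from 10 to 17 and from 21 to 31. For tTA against DN, they ran from 2 to 6, 6 to 7 and 0 to 1, where DN mouse 58 and tTA mouse 61 moved the first. They ran from 0 to 3, 1 to 1 and 0 to 0 for age in rTg4510, tTA and DN mice. Both interactions gave 0 to 0. No paired analysis was possible because no mouse number is shared between groups. Array number and probe-set brightness limit what can be seen, above all for the 18 members at or below the median probe set.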
